A study of Mus musculus with 4 samples.

Results

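The genes described here are adaptors, scaffolds, a receptor and a RING partner of the cullin-RING ubiquitin ligases: Eloc, Elob, Ddb1, Cul1, Cul2, Cul3, Cul4a, Cul5, Vhl and Rbx1. They were chosen by gene symbol from the annotation of the array, as rows that carry exactly 1 gene symbol, and the brightest row was taken where a gene had several. Of the 10 symbols, 9 had such a row, out of 22180 genes measured in all, and 8 of the 9 passed the limit for dim genes, a mean over the 4 arrays at the 25th percentile of all genes, or 4.835 on the log2 scale. Rbx1, the RING protein of most of these ligases, is listed only in a row that also names a second symbol, so it has no value here. The set was put together after Eloc and Ddb1 were seen to be higher in 1 group of these same arrays. All group differences of the 9 genes are therefore given as descriptions without a test.

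Whole-transcript microarrays measured expression in sorted mouse bone marrow cells of the Thy1+ LSK type, which lack lineage markers, carry Sca-1 and Kit and are rich in haematopoietic stem cells. The 4 arrays fell into 2 groups of 2, Nol3+/+ and Nol3-/- MPN, with mice of the C57BL/6 background, untreated and aged 11 to 18 months in both. Nol3 encodes an inhibitor of cell death, and MPN was read as myeloproliferative neoplasm; the sample labels attach it to the Nol3-/- group, whereas the series title can be read as attaching it to both genotypes. How the Nol3 allele was made and the sex of the mice are unstated in the labels. So is whether an array held the RNA of 1 or several mice. The errors below therefore rest on the spread between arrays only. Each SE is limma's, which draws on the spread of other genes as well as the gene's own.

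Cullins are long scaffold proteins that hold a RING protein and its ubiquitin-charged E2 enzyme at their C-terminal end and a substrate receptor at the other. The receptor docks through an adaptor that is typical for each cullin: SKP1 for CUL1, the elongin B and elongin C pair for CUL2 and CUL5, BTB-domain proteins for CUL3, and DDB1 for CUL4A and CUL4B. The ligases are switched on by attachment of the small protein NEDD8 to the cullin and switched off by the COP9 signalosome, and they control cell-cycle regulators, hypoxia factors, oxidative stress factors and cytokine receptor signalling in blood cells.

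The 4 arrays had medians between 5.35 and 5.39 log2 units. Nol3+/+ replicate 1 stood apart from the others, with correlations across genes between 0.899 and 0.911 against 0.929 to 0.949 among the other 3 arrays. Xist, the RNA of the inactive X chromosome, read 5.43 and 5.28 in Nol3+/+ against 10.9 and 10.7 in Nol3-/- MPN. The Y-linked genes Eif2s3y, Uty and Kdm5d were lower in both Nol3-/- MPN arrays, with log2 differences of -2.74, -1.50 and -1.19. Genotype, the disease label and sex-linked signal thus divide the arrays in the same way and cannot be told apart in any comparison below. Of the sort genes, Kit read 8.07 and 8.10 in Nol3+/+ against 8.38 and 7.39 in Nol3-/- MPN, and Thy1 read 4.74, 5.02, 4.64 and 5.24 in the same order, around the limit for dim genes. Sca-1 (Ly6a) had no row with 1 symbol. Mean signal of the 9 tested of 12 listed granulocyte and monocyte markers overlapped between the groups, at 6.63 and 7.19 against 6.76 and 6.72. That of the 4 tested of 6 listed B cell markers did not, at 5.49 and 5.50 against 5.69 and 5.74. Nor did that of the 5 tested of 10 listed erythroid markers, at 6.359 and 6.322 against 6.285 and 6.25. Those markers differed in both directions: Car2 by -0.42, Slc4a1 by -0.10, Epor by -0.04, Klf1 by 0.04 and Car1 by 0.15. The means of the megakaryocyte and of the T and NK cell markers overlapped. Of the 5 tested megakaryocyte markers, Pf4 (0.59) lay higher and Itga2b (-0.19) lower on both Nol3-/- MPN arrays. Of the 5 tested T and NK cell markers, 2 lay higher and 2 lower on both. The B cell markers Cd79b, Cd79a, Ebf1 and Pax5 differed by 0.50, 0.19, 0.17 and 0.02. Over all tested genes, 15.9% lay lower and 19.7% higher on both Nol3-/- MPN arrays than on both Nol3+/+ arrays. Of the 9 granulocyte and monocyte markers, 3 lay lower on both, S100a8 (-0.86), S100a9 (-0.83) and Ltf (-0.27), and 1 higher, Adgre1 (0.37). Ly6g of that list, left out as dim, read 4.43 and 4.24 in Nol3+/+ against 4.96 and 5.38 in Nol3-/- MPN (0.83). Of 10 sort and stem cell genes tested, Hlf (-0.83) and Procr (-0.27) lay lower and Mecom (0.31) and Gata2 (0.05) higher in both. These genes were named after their values were seen, and the part of such markers in the results was not tested. In bulk RNA, fewer cells of a type and less RNA per cell cannot be told apart.

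Of the 9 genes, 3 were at least 2-fold higher in Nol3-/- MPN with no overlap between the groups: Eloc, Cul2 and Ddb1. That pattern was found in 155 of 22180 measured genes, 0.699%. Both Nol3-/- MPN arrays lay above both Nol3+/+ arrays for 5 of the 9 genes, the other members being Cul3 and Cul5 with small differences, against 18.8% of all measured genes. They lay below for 1 of 9, Elob, against 16.4%. When the rows of Elob and Cul5 were averaged, these counts were 4 higher and 0 lower. The lower count was 3 without Nol3+/+ replicate 2 and 2 without either Nol3-/- MPN array. Leaving out an array can only keep or raise such a count. The shares of all genes given here are for all arrays, and none was taken with an array left out. The median difference of the 9 genes was 0.30 log2 units, against 0.00 over all measured genes. Since the set was assembled around this contrast, these shares describe it and support nothing further.

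**Figure D1:**
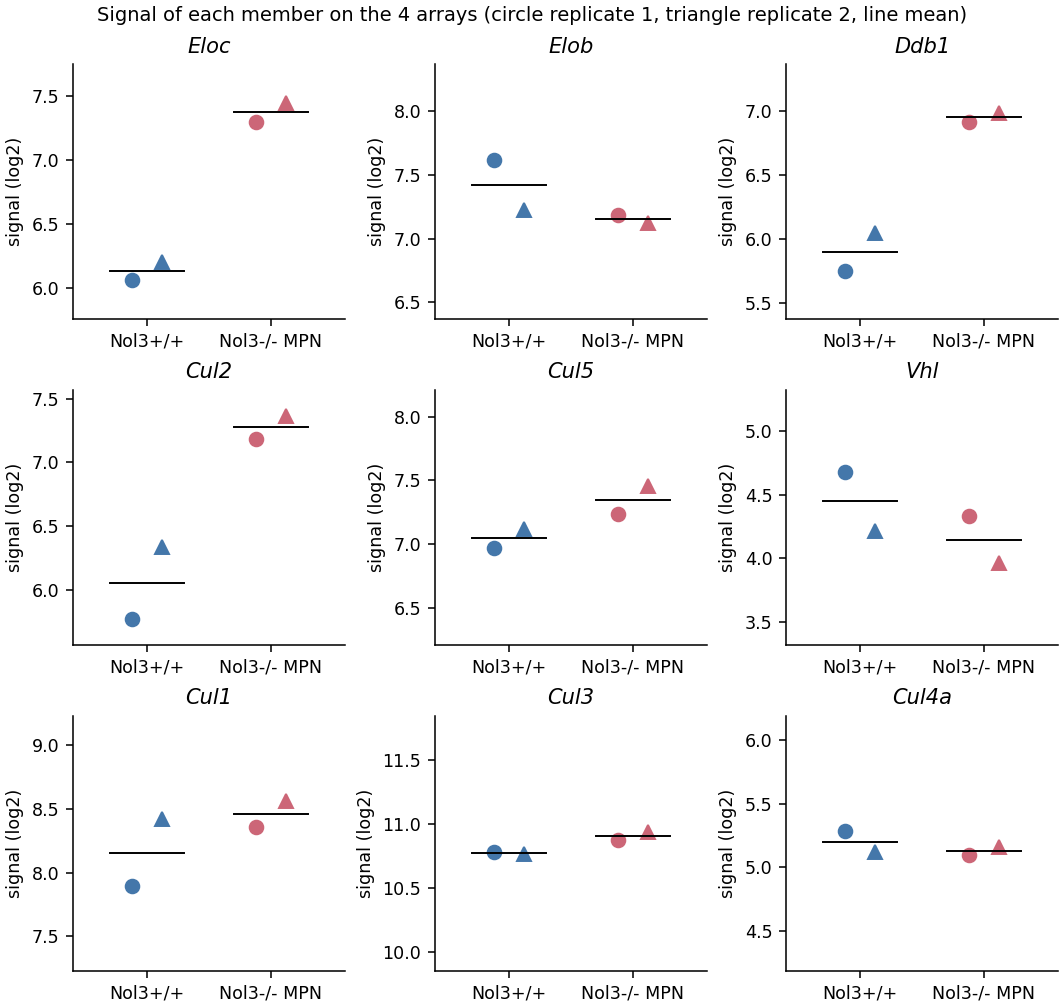
Log2 signal of each of the 9 genes on the 4 arrays, with Nol3+/+ in blue and Nol3-/- MPN in red, circles for replicate 1, triangles for replicate 2 and a line at the group mean; every panel spans 2 log2 units. Eloc, Ddb1 and Cul2 show clear space between the groups, whereas Vhl, Cul1 and Cul4a overlap.

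Eloc encodes elongin C, which bridges elongin B and the BC-box of a substrate receptor such as VHL or a SOCS protein, and which shares its fold with SKP1. Eloc read 6.06 and 6.20 in Nol3+/+ against 7.30 and 7.45 in Nol3-/- MPN. The arrays of each group lay 0.144 apart, and the nearest arrays of different groups lay 1.10 apart. The log2 difference was 1.24 (limma SE 0.20), a 2.37-fold higher signal in Nol3-/- MPN. Of the 16635 tested genes, 92 were higher by more, with lower genes not counted. The Eloc difference stayed between 1.17 and 1.31 when any 1 array was left out.

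Elob encodes elongin B, the ubiquitin-like protein that pairs with elongin C and stabilises it, and its signal did not follow that of Eloc. Elob read 7.62 and 7.23 in Nol3+/+ against 7.19 and 7.12 in Nol3-/- MPN. The Nol3-/- MPN arrays were the lower ones, by as little as 0.04 at the nearest pair, which is less than the 0.391 between the Nol3+/+ arrays. The log2 difference was -0.27 (SE 0.24), and it was -0.07 without Nol3+/+ replicate 1. A second row of Elob read 5.74 and 8.01 in Nol3+/+ against 6.36 and 6.53 in Nol3-/- MPN, so there the Nol3+/+ arrays lay on either side of the Nol3-/- MPN arrays.

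Within each array the log2 ratio of Eloc to Elob can be set against its own Nol3+/+ mean, which removes the level of each row. On that scale the Nol3+/+ arrays stood at -0.27 and 0.27 and the Nol3-/- MPN arrays at 1.41 and 1.62, a mean of 1.51 ± 0.15 (SD, n = 2). The signals of the 2 elongin partners thus differed unequally between the groups.

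Ddb1 encodes the large propeller adaptor of the CUL4 ligases, first known as a subunit of the complex that binds ultraviolet-damaged DNA. Ddb1 read 5.75 and 6.05 in Nol3+/+ against 6.91 and 6.99 in Nol3-/- MPN, so the nearest arrays of different groups lay 0.867 apart. The log2 difference was 1.05 (SE 0.19), a 2.08-fold higher signal in Nol3-/- MPN. Without Nol3+/+ replicate 1 it was 0.90, below 2-fold.

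The promoters of Ddb1 and Elob are shown because Ddb1 lay clearly higher in Nol3-/- MPN, Elob did not, and RefSeq sequence was at hand for both. Each line gives the 250 bases before the start of the gene in build GRCm38.p6, 5′ to 3′ on the strand of the gene, with GC boxes (GGGCGG on either strand, overlapping matches joined) in capitals. Ddb1 lies on the plus strand at chr19:10605347-10605596 and Elob on the minus strand at chr17:23829110-23829359.
Ddb1: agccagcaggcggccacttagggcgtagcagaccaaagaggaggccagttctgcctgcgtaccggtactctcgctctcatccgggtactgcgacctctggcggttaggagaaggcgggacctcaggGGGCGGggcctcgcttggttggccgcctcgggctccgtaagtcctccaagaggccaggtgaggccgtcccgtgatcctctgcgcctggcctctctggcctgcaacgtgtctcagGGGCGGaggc
Elob: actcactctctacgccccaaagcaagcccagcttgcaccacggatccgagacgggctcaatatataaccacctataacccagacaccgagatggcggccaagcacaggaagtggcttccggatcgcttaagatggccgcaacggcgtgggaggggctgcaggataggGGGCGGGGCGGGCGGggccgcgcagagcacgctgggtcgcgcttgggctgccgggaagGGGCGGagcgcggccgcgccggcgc
The Ddb1 window held 2 GC boxes and the Elob window 4, with the nearest starting 10 and 25 bases before the gene start. GC content was 67.2% in Ddb1 and 68.0% in Elob, against a median of 52.4% over 32851 promoter windows. The windows held 19 and 27 CpG dinucleotides, against a median of 6. A GC box was found in 7 of the 8 genes of the set with an entry and in 32.7% of all windows. ACGTG on either strand, a form of the hypoxia response element core, was found in 4 of the 8 genes, Ddb1 among them, and in 16.6% of all windows. GCGTG, which also occurs as that core and stands in the Elob window, was not counted. Cul1 has 3 windows and counts as matched where any of them holds the letters, which gives it more chances than a single window. Such matches are descriptions of sequence and say nothing of which factors bind. Eloc and Cul2 had no entry.

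Among the cullins that use the elongin adaptor, Cul2 and Cul5 differed in size of change. Cul2 encodes the scaffold that carries VHL and other BC-box receptors. It read 5.77 and 6.34 in Nol3+/+ against 7.19 and 7.37 in Nol3-/- MPN, with 0.850 between the nearest arrays of different groups. Its log2 difference was 1.22 (SE 0.26), a 2.33-fold higher signal in Nol3-/- MPN, and 0.94 without Nol3+/+ replicate 1.

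Cul5 encodes the scaffold that works with SOCS-box receptors and with the RING protein RNF7 (RBX2). It read 6.97 and 7.12 in Nol3+/+ against 7.24 and 7.45 in Nol3-/- MPN, higher in both Nol3-/- MPN arrays by at least 0.12. Its log2 difference of 0.30 had an SE of 0.22. A second, dimmer row of Cul5 differed by -0.19, so the direction for this gene depends on the row taken. The log2 ratio of Cul2 to Cul5 within arrays, relative to its Nol3+/+ mean, was -0.21 and 0.21 in Nol3+/+ against 0.94 and 0.90 in Nol3-/- MPN.

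Vhl encodes the receptor that brings hydroxylated HIF-alpha subunits to the CUL2 ligase. It read 4.68 and 4.22 in Nol3+/+ against 4.33 and 3.96 in Nol3-/- MPN. All 4 values lay under the limit for dim genes, so Vhl was not tested, and its signal cannot be separated from background on these values.

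The remaining cullins showed small differences. Cul1, the scaffold of the SCF ligases, read 7.90 and 8.42 in Nol3+/+ against 8.36 and 8.56 in Nol3-/- MPN, and the groups overlapped. Its log2 difference of 0.30 was 0.04 without Nol3+/+ replicate 1 and 0.56 without Nol3+/+ replicate 2. Cul3, the scaffold of the BTB ligases, read 10.78 and 10.77 in Nol3+/+ against 10.88 and 10.94 in Nol3-/- MPN, a log2 difference of 0.13 (SE 0.12). Cul4a, a scaffold that takes up DDB1, read 5.28 and 5.12 in Nol3+/+ against 5.10 and 5.16 in Nol3-/- MPN, a log2 difference of -0.08 (SE 0.13). The Ddb1 signal thus differed between the groups while that of this scaffold overlapped. The log2 ratio of Ddb1 to Cul4a, relative to its Nol3+/+ mean, was -0.23 and 0.23 in Nol3+/+ against 1.12 and 1.14 in Nol3-/- MPN. All Cul4a values lay under the array medians of 5.35 to 5.39 and near the dim limit of 4.835, which limits this comparison.

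**Figure D2:**
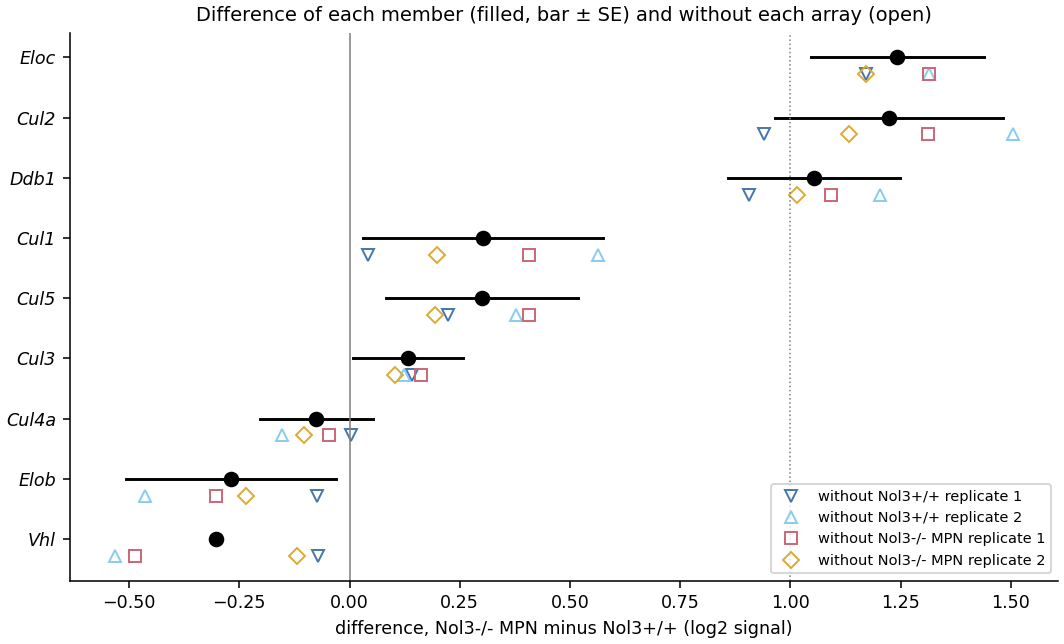
Log2 difference of each gene, Nol3-/- MPN minus Nol3+/+, as filled points with limma's SE as bars (none for Vhl, which was not tested); open symbols give the difference with 1 array left out, and the dotted line marks 2-fold. Eloc stays above 2-fold throughout, from 1.17 to 1.31, whereas Cul2 and Ddb1 drop to 0.94 and 0.90 without Nol3+/+ replicate 1.

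Leaving out Nol3+/+ replicate 1, the array that stood apart, reduced the number of members at least 2-fold higher with no overlap from 3 to 1, with Eloc the one left. The number that lay higher on both Nol3-/- MPN arrays was 5 without it as well. Leaving out an array cannot undo a lack of overlap, so this count could not fall. The median difference of the 9 genes was 0.14 without that array, 0.38 without Nol3+/+ replicate 2, and 0.13 when the rows of Elob and Cul5 were averaged.

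The wider cullin system was described with 10 lists of other genes, of which 193 were tested. By limma's adjusted p over all 16635 genes, with a threshold of 0.05, 0 of the 193 passed in either direction, against 0.024% of all tested genes. Of them, 4 higher and 2 lower genes had an unadjusted p under 0.05, beside 3.73% and 2.07% of all tested genes. The ordinary linear model, which also called 0 of the 193, gave 7 at that p. Without Nol3+/+ replicate 2, limma gave 26 at that p and 0 past the adjusted threshold. Of the 193 genes, 112 were higher and 81 lower, with a median of 0.05. Over the 16635 tested genes 51.7% were higher, with a median of 0.01. In 37 of the 193 both Nol3-/- MPN arrays were the higher ones and in 23 the lower ones, against 19.7% and 15.9% of all tested genes.

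Among other cullins and RING partners, 3 of 7 were higher and 4 lower, with a median of -0.13. The sign of that median turned without Nol3+/+ replicate 1, to 0.02, and with the row of lowest mean, to 0.01, and it was -0.28 without Nol3+/+ replicate 2. Rnf7, the RING protein that serves CUL5, had the largest difference of the list. It read 7.95 and 7.39 in Nol3+/+ against 9.06 and 9.12 in Nol3-/- MPN, a log2 difference of 1.43 (SE 0.27, limma adjusted p = 0.795). Both Nol3-/- MPN arrays were the higher ones, by more than the 0.555 between the Nol3+/+ arrays. The log2 ratio of Rnf7 to Cul5 within arrays, relative to its Nol3+/+ mean, was 0.35 and -0.35 in Nol3+/+ against 1.20 and 1.05 in Nol3-/- MPN. Cul4b, the X-linked relative of Cul4a, read 8.20 and 7.90 in Nol3+/+ against 7.88 and 7.96 in Nol3-/- MPN, so it overlapped like Cul4a. Anapc11, the RING subunit of the anaphase-promoting complex, and Cacul1, a cullin-related gene, differed by -0.26 and -0.46 (limma adjusted p = 0.846 and 0.869).

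**Figure D3:**
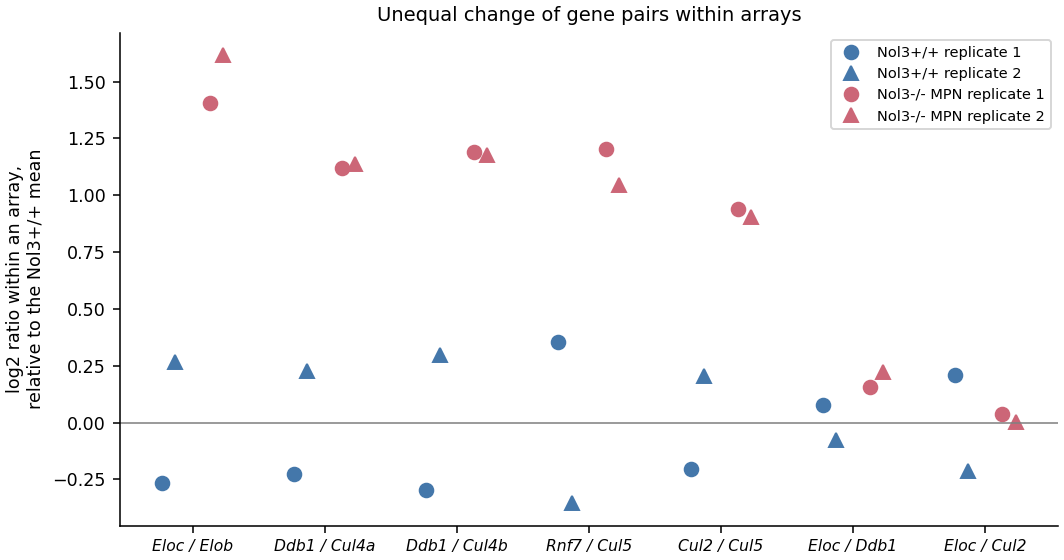
Log2 ratio of gene pairs within each array, set to a mean of 0 over the Nol3+/+ arrays, for 7 pairs chosen after their values were seen. Eloc over Elob, Ddb1 over Cul4a or Cul4b, Rnf7 over Cul5 and Cul2 over Cul5 stand between 0.90 and 1.62 in the Nol3-/- MPN arrays, whereas Eloc over Cul2 lies within the Nol3+/+ range.

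Eloc and Cul2 differed between the groups by nearly the same amount. Their log2 ratio relative to the Nol3+/+ mean was 0.04 and 0.00 in the Nol3-/- MPN arrays, inside the Nol3+/+ values of 0.21 and -0.21. Eloc over Ddb1 stood at 0.15 and 0.22 in Nol3-/- MPN against 0.08 and -0.08 in Nol3+/+.

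For substrate receptors the median difference was small in every class. For CUL1, 20 of 31 genes of the adaptor and F-box list were higher and 11 lower (median 0.11), led by Fbxo45 at 0.50, the iron-sensing receptor gene Fbxl5 at 0.35 and Fbxo28 at 0.64. Skp1, the adaptor that shares its fold with elongin C, read 10.04 and 9.68 in Nol3+/+ against 9.91 and 9.66 in Nol3-/- MPN, a log2 difference of -0.08 (SE 0.21). The BC-box receptors that dock on the elongins had 14 of 29 genes higher and 15 lower (median -0.02), led by Asb7 at -0.39, Asb1 at 0.27 and Spsb2 at -0.27. The BTB receptors of CUL3 had 19 of 31 higher and 12 lower (median 0.08), with Kbtbd4 at -0.52, Klhl20 at 0.49 and Klhl24 at 1.03; the Nol3+/+ arrays of Klhl24 read 7.16 and 8.71, a wide spread. The DDB1-binding receptors had 18 of 28 higher and 10 lower (median 0.09). Dcaf13, which also acts in ribosome assembly, differed by 0.81 and Wdr5, a subunit of histone methyltransferase complexes, by -0.28. Dcaf12 differed by -2.74 (SE 1.38), with readings of 9.74 and 8.28 in Nol3+/+ against 8.34 and 4.20 in Nol3-/- MPN, so a single array carried most of it. With 1 array left out, the medians ran from 0.06 to 0.11 for the CUL1 list, from -0.04 to 0.03 for the BC-box list, from 0.04 to 0.10 for the BTB list and from 0.03 to 0.08 for the DDB1-binding list, the lowest of the last without Nol3+/+ replicate 1. The genes that lead these receptor lists had adjusted p-values between 0.841 and 0.853 in limma.

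The genes that switch the ligases on and off lay on both sides. In the list of neddylation, CAND1 exchange and COP9 signalosome genes, 9 of 19 were higher and 10 lower, with a median of -0.01, between -0.01 and 0.06 with 1 array left out. The signalosome genes Cops9, Cops3 and Cops4 differed by 0.54, 0.43 and 0.35 (limma adjusted p = 0.841, 0.845 and 0.846). Among E2 enzymes and their ARIH partners, 8 of 9 were higher and 1 lower, with a median of 0.24, which was 0.03 without Nol3+/+ replicate 1 and 0.38 without Nol3+/+ replicate 2. Ube2d1, Ube2l3 and Ube2r2, E2 enzyme genes that work with cullin ligases, differed by 0.54, 0.29 and 0.44 (limma adjusted p = 0.841, 0.841 and 0.843).

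Genes downstream of the ligases lay on both sides as well, and the sign of each list median below turned with the array left out. Of 22 genes for HIF hydroxylation and HIF targets, 11 were higher and 11 lower (median 0.00, from -0.01 to 0.08 with 1 array left out). Mxi1, a MYC antagonist gene induced by HIF, differed by 1.43, the HIF prolyl hydroxylase gene Egln3 by 0.69 and the oxidoreductase gene Ero1a by -0.47 (limma adjusted p = 0.841 for each). Of 11 genes of NRF2 and its targets, the axis held down by the CUL3 receptor KEAP1, 6 were higher and 5 lower (median 0.01, from -0.07 to 0.14 with 1 array left out), led by the ferritin gene Fth1 at 0.34, Gclc at 0.55 and Hmox1 at -0.26 (limma adjusted p = 0.841, 0.846 and 0.887). Of 6 genes of CUL4 substrates, 4 were higher and 2 lower (median 0.13, but -0.05 without Nol3+/+ replicate 1 and -0.01 when Nol3-/- MPN replicate 2 was left out), with the CDK inhibitor gene Cdkn1a at -0.55, Kmt5a at 0.39 and the replication licensing gene Cdt1 at -0.09 (limma adjusted p = 0.841, 0.878 and 0.939).

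**Figure D4:**
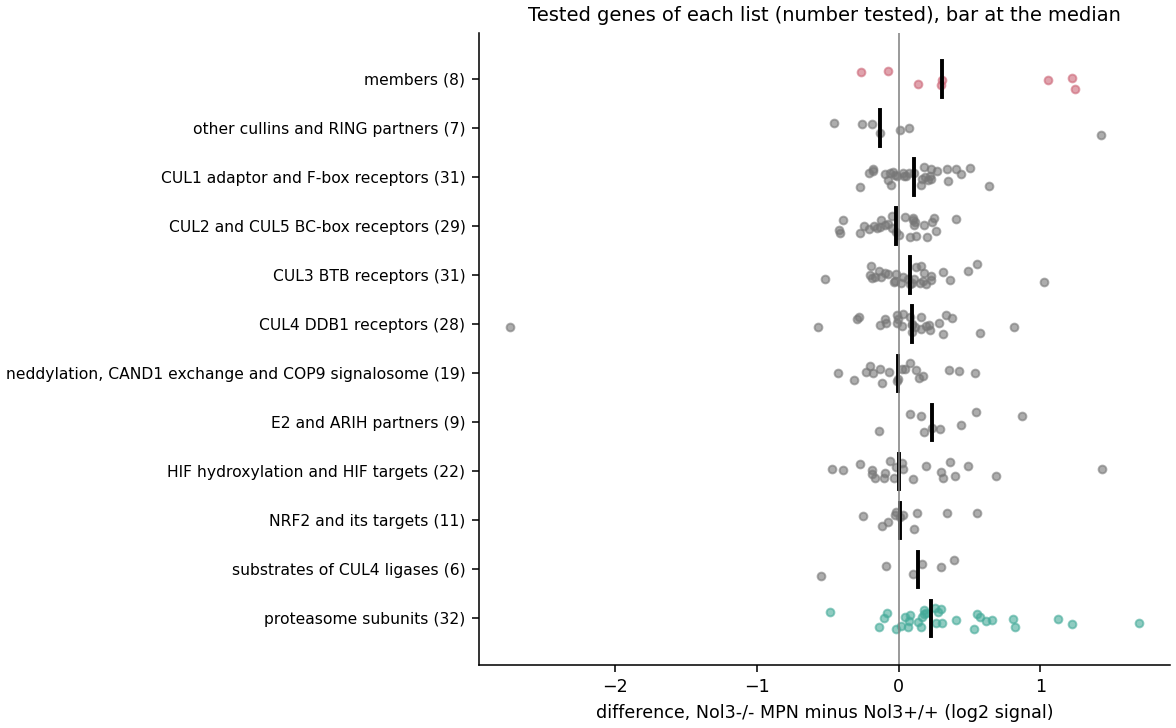
Log2 difference of each tested gene, Nol3-/- MPN minus Nol3+/+, by list, with the number tested in brackets and a bar at the median. Medians run from -0.13 for other cullins and RING partners, which is 0.02 without Nol3+/+ replicate 1, to 0.30 for the members, and the proteasome subunits stand at 0.23.

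The proteasome, which degrades what the cullin ligases mark, was taken as the nearest related group. Of 32 tested proteasome subunit genes, 27 were higher and 5 lower in Nol3-/- MPN, beside 51.7% higher over all tested genes. The median of the subunits was 0.23. Both Nol3-/- MPN arrays were the higher ones for 17 of them and the lower ones for 2, beside the background shares of 19.7% and 15.9% over all tested genes. By limma, 0 passed the adjusted threshold and 9 had an unadjusted p under 0.05, all of them higher, beside 3.73% higher and 2.07% lower of all tested genes. That median was 0.40 without Nol3-/- MPN replicate 1 and 0.11 without Nol3-/- MPN replicate 2. With all arrays, Psmc5 (1.69), Psma2 (1.22) and Psmd7 (1.12) were at least 2-fold higher with no overlap, like Eloc, Cul2 and Ddb1. The Nol3+/+ arrays of Psmc5, Psma2 and Psmd7 lay further apart, by 0.990, 0.764 and 1.19. Those of Eloc, Cul2 and Ddb1 lay 0.144, 0.566 and 0.298 apart. The difference between this list and the cullin genes was not tested.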

How the data were processed

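The table deposited by the authors holds 41345 rows for 4 arrays, and its values (2.84 to 13.5) were treated as normalized log2 signals, although no source names the log base. The submitters' processing notes list Affymetrix Expression Console together with Transcriptome Analysis Console, without versions; the background correction and normalization behind the values are unstated. Detection calls were not used here, and precision is limited by the number of arrays.

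Gene names came from the platform annotation, using rows with 1 symbol (23521 rows, 22180 genes). Genes with a mean under the 25th percentile, 4.835, were left out as dim, which left 16635. Group differences were fitted in limma 3.58.1 under R 4.3.3 (lmFit, eBayes with a variance trend, 2 residual and 3.19 prior degrees of freedom), and p-values were adjusted by Benjamini-Hochberg over all genes tested. The script was tested on simulated data. A difference is Nol3-/- MPN minus Nol3+/+ in log2 signal.

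The members and lists were chosen with earlier results of these data known. Named genes were all members, the sort and sex-linked genes, the relatives Skp1, Rnf7 and Cul4b, and the 3 genes of each pathway list with the smallest limma p. Stem cell and cell type markers and proteasome subunits were named in addition, after their values were seen. Replicate numbers are shared by the groups, but deviations from the group means correlated at 0.049 between same-numbered arrays, and nothing in the labels pairs them. Alternatives were the dim limit, normalization, row choice, variance model, replicate block, autosomal genes only and each array left out. Promoters came from RefSeq, GRCm38.p6.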

Additional observations from a re-analysis of the deposited data

How the results depend on the processing

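Over all genes, limma called 4 past the adjusted threshold, and 0 with the ordinary linear model, 0 with the replicate block and 0 among autosomal genes only; with 1 array left out the count ran from 0 to 39 (18 without Nol3+/+ replicate 1, 39 without Nol3+/+ replicate 2, 0 without either Nol3-/- MPN array). Each fit without an array takes its lone array to vary like the other group. The 193 pathway genes gave 0 calls under every alternative run; 26 had an unadjusted p under 0.05 without Nol3+/+ replicate 2, against 6 over all arrays and 7 with the replicate block. The median difference of the members was 0.30, and 0.13 both with the mean over the rows of a gene and with the row with the lowest mean; with 1 array left out it ran from 0.14 to 0.41. The number of members at least 2-fold higher with no overlap, counted after seeing the data, ran from 1 to 3 with 1 array left out, and the number higher with no overlap was 5 to 6, and 4 under either other choice of row. The number lower with no overlap was 1, and 0 under either other choice of row. With 1 array left out it ran from 1 to 3. Leaving out an array cannot undo a lack of overlap, so the counts higher and lower with no overlap could not fall that way. Of 210 further values, 190 were labelled unchanged and 20 moved. Cul5 was among the 20, at 0.05 with the mean over its rows and -0.19 with its dimmer row. Differences and medians were judged against the spread between replicates, and counts of members by their ratio. For a single gene, leaving out 1 array cannot move the difference beyond that spread. The dim limit cannot alter it, nor can the choice of row for a gene with a single row. The 190 is therefore no measure of robustness. The causes were not tested.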
